A study of Mus musculus with 24 samples.

Results

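The secreted and membrane-bound metalloproteases of the ADAMTS and MMP families, the ADAMTS-like proteins and the TIMPs were followed across 8 groups of adipose progenitor cells of the mouse. Members were taken by gene symbol: Adamts, Adamtsl or Mmp followed by a number, with a or b allowed after it for Mmp, and Timp1 to Timp4. The rule found 51 genes among the 27179 of the expression table: 19 ADAMTS, 5 ADAMTSL, 23 MMP and 4 TIMP genes. Of these, 39 reached a normalized count of 10 in 3 or more of the 24 libraries and were tested (17, 5, 13 and 4 by family), and 12 were too low to test.

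Matrix metalloproteases (MMPs) are zinc-dependent enzymes that are made as inactive proenzymes and cleave collagens, gelatin, proteoglycans and other secreted proteins once activated. ADAMTS proteases are secreted relatives that act mainly on large proteoglycans such as versican and aggrecan, on procollagens and on proteins of fibrillin microfibrils, while the ADAMTS-like proteins carry similar binding modules without the catalytic domain. Tissue inhibitors of metalloproteinases (TIMPs) bind the active site of MMPs, and TIMP3 also inhibits several ADAMTS and ADAM enzymes. In adipose tissue these genes are expressed largely by stromal cells, and turnover of the matrix accompanies the growth of the tissue and the formation of new adipocytes.

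All libraries were bulk RNA-seq of PDGFRb+ cells, sorted by flow cytometry from white adipose tissue of C57BL/6 mice, with 3 libraries in each group. Gonadal fat gave FIP cells of males (M_FIP) and females (F_FIP) and APC cells of males (M_APC) and females (F_APC). Inguinal fat gave cells labelled DPP4_pos APC and DPP4_neg APC: DPP4_pos cells of males (M_DPP4_pos) and females (F_DPP4_pos) and DPP4_neg cells of males (M_DPP4_neg) and females (F_DPP4_neg). The labels state no age, genotype or treatment, and neither the gates that separated FIP from APC nor the number of animals behind a library is given in the sources used here. If replicates are not separate animals, p-values measure only how these libraries spread, and that spread may be technical.

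Libraries held 9152470 to 18221692 reads, and values are the deposited normalized counts unless a scale is named. Pdgfrb, the gene of the sorted surface receptor, held 1729.7 to 6277 in gonadal and 2078 to 4306 in inguinal libraries, and none of 8 progenitor markers was at 0 in any group. Markers of other cell types differed between groups. The sum of 9 epithelial markers lay between 3766 and 9029 in F_DPP4_neg and between 7.92 and 360 in the other 7 groups. Epcam, an epithelial adhesion gene, was 803 to 1913 in F_DPP4_neg, against 0 to 61.5 elsewhere. The sum of 10 neutrophil markers lay between 862 and 2880 in M_DPP4_neg, between 357 and 1107 in F_DPP4_neg and between 4.41 and 35.9 elsewhere, and none of the 10 was at 0 in either DPP4_neg group. The sum of 10 mesothelial markers lay between 2817 and 4659 in the gonadal groups, between 6869 and 16561 in F_DPP4_neg and between 49.3 and 683 in the other inguinal groups. In F_DPP4_neg that sum was carried by keratin genes shared with epithelium (Krt8 2851 to 6780.1), while Msln was 3.10 to 6.61 there, against 22.2 to 181 in gonadal libraries. In the gonadal groups most of the sum came from Wt1 alone, with 2488 to 3912. The sum of 9 mural markers was 1932 to 2176 in M_FIP, 3442 to 4057 in M_APC, 622 to 781 in M_DPP4_pos, 1949.5 to 2889 in M_DPP4_neg, 869.9 to 931 in F_FIP, 2391 to 2858 in F_APC, 1360.4 to 1789 in F_DPP4_pos and 1933 to 2263 in F_DPP4_neg. That of 8 adipocyte markers was 621 to 679.6 in M_FIP, 1537 to 2033 in M_APC, 326 to 530.2 in M_DPP4_pos, 2487 to 3017 in M_DPP4_neg, 195 to 263 in F_FIP, 1609 to 1862 in F_APC, 76.8 to 252 in F_DPP4_pos and 385 to 680.1 in F_DPP4_neg. That of 10 endothelial markers was 6379 to 7413 in M_FIP, 4069 to 4621 in M_APC, 4273 to 4547 in M_DPP4_pos, 1051 to 1243 in M_DPP4_neg, 5644 to 6259.8 in F_FIP, 3245 to 4572 in F_APC, 6415 to 7395 in F_DPP4_pos and 1826 to 2772 in F_DPP4_neg, and that of 13 macrophage markers 428 to 604 in M_FIP, 661 to 909.9 in M_APC, 292 to 364 in M_DPP4_pos, 535 to 852 in M_DPP4_neg, 169 to 235 in F_FIP, 375 to 745 in F_APC, 327 to 400.1 in F_DPP4_pos and 755 to 1625 in F_DPP4_neg. Dpp4, the gene of the surface protein that names the inguinal populations, was 14883 to 16085 in M_DPP4_pos, against 235 to 258 in M_DPP4_neg, and 17356 to 20848 in F_DPP4_pos, against 4213, 2124 and 1150.2 in F_DPP4_neg, where the first library is also the highest of its group in Adamts16, Adamtsl4 and Mmp27. Single genes carried some of the sums above. Tek held much of the endothelial sum, with 4039 to 5245 in FIP and 3808 to 5494 in DPP4_pos libraries. It held 1619 to 1875 in APC and 618 to 1707 in DPP4_neg libraries. Plin4 held most of the adipocyte sum in M_DPP4_neg (1854 to 2663), where Adipoq was 74.0 to 104, against 143 to 400 in APC libraries. In bulk samples, fewer cells of a type and less RNA per cell cannot be told apart.

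Per kilobase of exon, TIMP transcripts were led by Timp2, the inhibitor that also takes part in the activation of MMP2, in all 8 groups. Timp2 held between 56.0% and 82.4% of the summed level of the 4 TIMP genes, with the smallest share in M_DPP4_neg and the largest in M_FIP. Adamts1, a protease of versican and aggrecan, led the ADAMTS genes in every group, with shares from 35.7% in M_APC to 60.7% in M_DPP4_pos. Mmp2, which encodes gelatinase A, led the MMP genes in 7 groups, but in M_DPP4_neg the stromelysin gene Mmp3 came first with 44.2% of the summed level and Mmp2 second with 38.3%. The summed MMP level per kilobase was 7738 in M_FIP, 12886 in F_FIP, 11989 in M_APC and 12278 in F_APC. It was 25200.1 in M_DPP4_pos, 27039 in F_DPP4_pos, 36284 in M_DPP4_neg and 27702 in F_DPP4_neg, so each inguinal mean exceeded every gonadal mean. The summed TIMP level was higher in the FIP and DPP4_pos means (19881 to 30466.5) than in the APC and DPP4_neg means (11652 to 16591). ADAMTSL sums, led by Adamtsl4 in FIP and DPP4_pos cells, were 1364 to 2474 there and 765 to 1056 in APC and DPP4_neg cells, where Adamtsl5 led in M_APC and Adamtsl1 in the other 3 groups. Summed ADAMTS levels spanned a narrower range, 10258.5 in M_FIP to 15518 in F_APC. These sums are descriptions and were not tested.

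**Figure D1:**
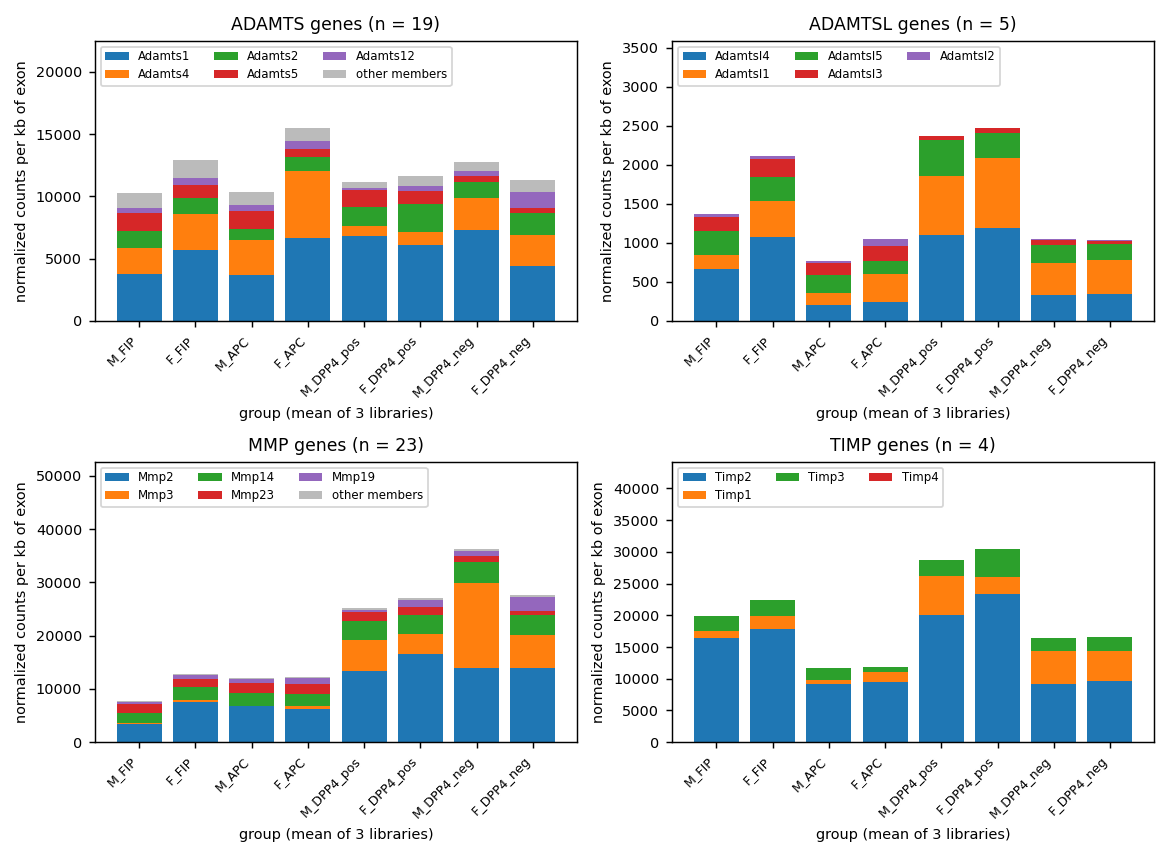
Stacked bars give the mean normalized count per kilobase of exon (3 libraries) of the 5 leading members of each family, with the other members in grey, in each of the 8 groups. The MMP bars of the inguinal groups, with the Mmp3 share in orange, stand above those of the gonadal groups, and Timp2 fills most of each TIMP bar.

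**Figure D2:**
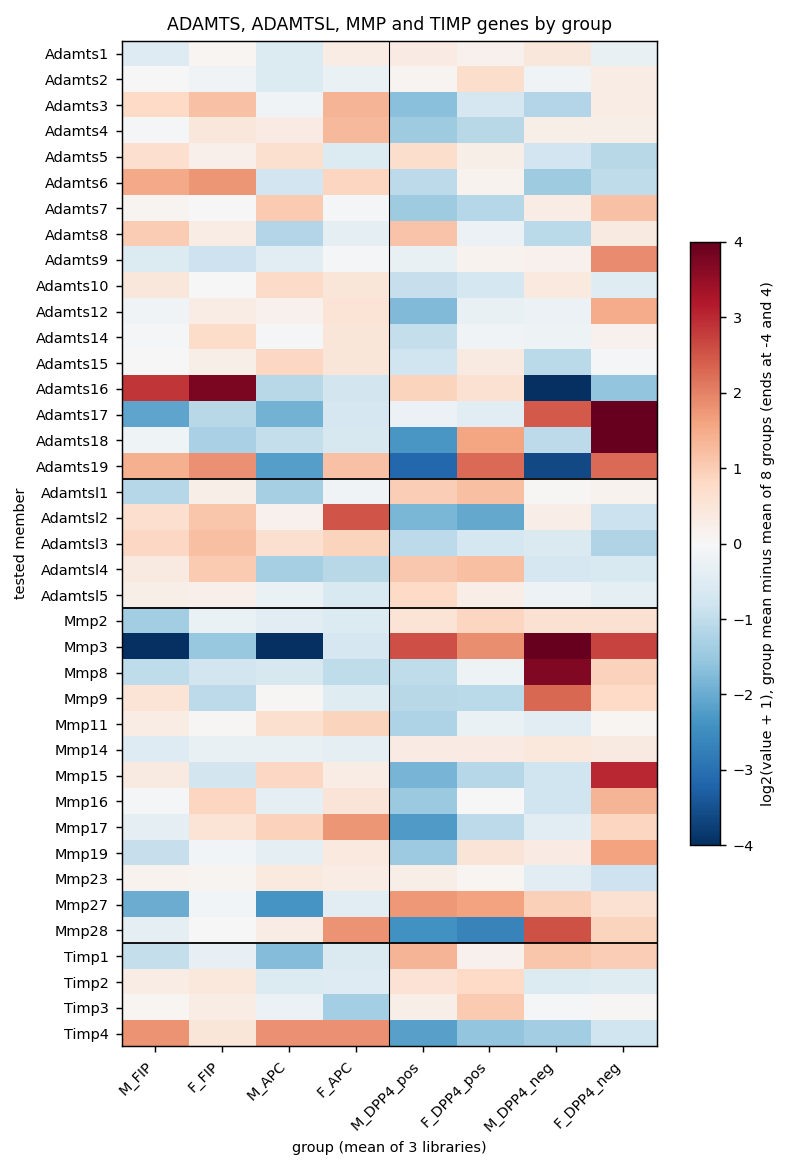
Each cell is the mean log2(value + 1) of 3 libraries minus the mean over the 8 groups, for the 39 tested members (rows, by family) and the 8 groups (columns). Mmp3 and Mmp27 are low in the 4 gonadal columns, Adamts16 is high in both FIP columns, and Adamts17, Adamts18 and Mmp15 are highest in F_DPP4_neg.

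Gonadal and inguinal cells were compared within each sex, FIP with DPP4_pos and APC with DPP4_neg. Mmp3, which encodes stromelysin-1, an enzyme with many matrix substrates that also activates other MMP proenzymes, showed the largest depot difference of any tested member in both male comparisons. It held 63.3, 80.3 and 74.8 normalized counts in M_FIP, against 9833, 11556 and 9892 in M_DPP4_pos (log2 fold change -7.15 ± 0.18 SE, limma adjusted p = 1.37e-20). In the other male pair it held 56.9, 88.1 and 87.1 in M_APC, against 34279.6, 24871 and 27467 in M_DPP4_neg (log2 fold change -8.54 ± 0.18 SE, limma adjusted p = 3.45e-22). All 6 gonadal male libraries (56.9 to 88.1) thus lay far below all 6 inguinal male libraries (9833 to 34279.6). Females showed the same direction with a smaller gap: 689, 677 and 484 in F_FIP, against 4443, 7745 and 7235 in F_DPP4_pos (log2 fold change -3.37 ± 0.18 SE, limma adjusted p = 5.2e-14). The female pair of APC and DPP4_neg held 1142, 1069 and 1047 in F_APC, against 10291, 11149 and 12668 in F_DPP4_neg (log2 fold change -3.38 ± 0.18 SE, limma adjusted p = 2.11e-14). In none of these 4 pairs did the groups overlap.

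Mmp27, a less studied MMP gene on the same chromosome, was lower in gonadal cells as well. It held 43.5, 43.7 and 48.8 in M_FIP, against 590.1, 609 and 611 in M_DPP4_pos (log2 fold change -3.71 ± 0.19 SE, limma adjusted p = 1.01e-14), and 41.9, 34.8 and 28.3 in M_APC, against 328, 381 and 350.2 in M_DPP4_neg (log2 fold change -3.31 ± 0.19 SE, limma adjusted p = 8.6e-14). Female libraries held 169.5, 200.4 and 138 in F_FIP, against 524, 533 and 596 in F_DPP4_pos (log2 fold change -1.71 ± 0.19 SE, limma adjusted p = 5.24e-08). The last pair held 137, 132 and 138 in F_APC, against 445, 192 and 244 in F_DPP4_neg (log2 fold change -1.02 ± 0.19 SE, limma adjusted p = 6.04e-05). The groups did not overlap in any pair, and F_DPP4_neg was the most spread out, with its first library above the other two.

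Both genes lie in a run of 10 MMP genes on chromosome 9 between 7272514 and 7699585 (GRCm38), a span of 427 kb that holds in order Mmp13, Mmp12, Mmp1b, Mmp3, Mmp1a, Mmp10, Mmp8, Mmp27, Mmp20 and Mmp7. The start of Mmp3 (7445822 to 7455975, plus strand) is 173 kb from the start of Mmp13 and that of Mmp27 (7571396 to 7581885, plus strand) 299 kb. The other 8 genes of the run had few reads: 94 for Mmp8, 82 for Mmp12, 74 for Mmp13, 69 for Mmp10, 5 for Mmp1a, 3 each for Mmp1b and Mmp7 and 2 for Mmp20 over all 24 libraries, against 177323 for Mmp3 and 6656 for Mmp27. Mmp1a and Mmp1b are close copies of each other, so their few reads are uncertain between them. Mmp10, the gene of stromelysin-2 in the same run, ranged over 0 to 2.56 in gonadal libraries and 1.13 to 9.0 in inguinal ones. Mmp13, a collagenase gene at the other end of the run, ranged over 0 to 7.92 in gonadal and 0 to 12.3 in inguinal libraries. For both genes the ranges of the depots overlapped, and neither was tested.

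The 150 bases before the annotated start sites of 5 genes of the run are shown because Mmp3 and Mmp27 had the same depot direction while neighbours of Mmp3 were near 0. Sequences are from RefSeq (GRCm38.p6), 5′ to 3′ on the strand of the gene, with capitals on an AP-1 motif (TGA and TCA with any 1 base between them, a motif that reads the same way on both strands) and on a TATA box (TATAAA on either strand). The capitals at the end of the Mmp8 line are the first letters of a match that runs past the start site. The windows are chr9:7272364-7272513, plus strand for Mmp13, chr9:7445672-7445821, plus strand for Mmp3, chr9:7502192-7502341, plus strand for Mmp10, chr9:7558279-7558428, plus strand for Mmp8 and chr9:7571246-7571395, plus strand for Mmp27.
Mmp13: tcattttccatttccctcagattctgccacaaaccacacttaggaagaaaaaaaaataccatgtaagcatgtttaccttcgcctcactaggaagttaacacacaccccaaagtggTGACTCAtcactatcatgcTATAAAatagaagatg
Mmp3: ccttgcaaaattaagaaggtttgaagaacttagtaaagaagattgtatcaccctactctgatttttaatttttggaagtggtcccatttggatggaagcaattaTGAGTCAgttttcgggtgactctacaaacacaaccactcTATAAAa
Mmp10: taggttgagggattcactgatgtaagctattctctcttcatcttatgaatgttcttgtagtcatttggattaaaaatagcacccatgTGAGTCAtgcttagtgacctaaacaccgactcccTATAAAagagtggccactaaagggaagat
Mmp8: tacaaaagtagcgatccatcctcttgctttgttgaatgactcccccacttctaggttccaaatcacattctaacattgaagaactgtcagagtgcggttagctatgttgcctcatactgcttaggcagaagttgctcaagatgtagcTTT
Mmp27: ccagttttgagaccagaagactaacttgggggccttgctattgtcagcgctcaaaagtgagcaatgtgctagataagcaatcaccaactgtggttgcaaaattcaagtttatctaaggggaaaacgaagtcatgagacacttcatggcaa

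The match to the AP-1 motif begins 46 bases before the start site of Mmp3 (TGAGTCA), 63 before that of Mmp10 (TGAGTCA) and 35 before that of Mmp13 (TGACTCA). Matches were searched on both strands in the whole RefSeq promoter window, from 250 bases before to 50 after the start site, and none overlapped another. Of the 10 genes of the run, 8 had an AP-1 match and 9 a match to the TATA letters. Mmp27 had neither in its window. In Mmp8 the match was the reverse letters (TTTATA) across the start site. In Mmp12 it began 4 bases after the start site, in the window that starts at 7347124. Of the other 26 members with a window read here, 0 had an AP-1 match and 3 a TATA box, namely Adamts1, Adamtsl2 and Mmp21. Among all 32851 mouse promoters of the same length, 7.81% held the AP-1 letters and 13.6% the TATA letters. These shares count promoters, while the numbers above count genes, some of them with a further window. A match is a description of the letters, and genes with and without one are both among those higher in inguinal cells.

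Mmp2, Mmp14 and Timp1 were also lower in gonadal cells in all 4 comparisons. Mmp2 held 9781, 10548 and 11849.5 in M_FIP, against 40304, 41674 and 41476 in M_DPP4_pos (log2 fold change -1.94 ± 0.09 SE, limma adjusted p = 6.23e-16). It held 20857, 20986 and 21024 in M_APC, against 41831, 43199 and 43194 in M_DPP4_neg (log2 fold change -1.03 ± 0.09 SE, limma adjusted p = 1.26e-10). Its log2 fold changes in females were -1.13 for F_FIP against F_DPP4_pos and -1.15 for F_APC against F_DPP4_neg. The 12 gonadal libraries (9781 to 24321) all lay below the 12 inguinal ones (38420.0 to 53692). Mmp14, the membrane-anchored collagenase that activates the MMP2 proenzyme, ranged over 7515 to 10123 in gonadal and 14178 to 16752 in inguinal libraries, with log2 fold changes between -0.86 and -0.64 (SE 0.07). The depots did not overlap for either gene.

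Timp1, an X-linked gene whose product inhibits many MMPs, held 1014, 1129 and 1109 in M_FIP, against 5254, 6004 and 5135 in M_DPP4_pos (log2 fold change -2.33 ± 0.11 SE, limma adjusted p = 2.76e-15). It held 613, 642 and 656 in M_APC, against 5947, 3906 and 4022 in M_DPP4_neg (log2 fold change -2.83 ± 0.11 SE, limma adjusted p = 6.25e-17). Females held 1787, 1749 and 1517 in F_FIP, against 2479.8, 2047 and 2606 in F_DPP4_pos (log2 fold change -0.49 ± 0.11 SE, limma adjusted p = 0.000789), and 1380.1, 1410.3 and 1450.4 in F_APC, against 4134, 4340.0 and 4118 in F_DPP4_neg (log2 fold change -1.57 ± 0.11 SE, limma adjusted p = 9.6e-12). No gonadal group overlapped the inguinal group it was set against. Timp4, whose product inhibits MMPs and whose gene is best known from adipose tissue and heart, went the other way, with 28.1 to 129 in gonadal and 3.46 to 20.6 in inguinal libraries. Its log2 fold changes lay between 2.08 (limma adjusted p = 1.24e-06) and 3.99 (limma adjusted p = 5.05e-12). Timp2 was lower in FIP than in DPP4_pos (-0.29 in males and -0.39 in females), whereas its APC to DPP4_neg differences of -0.02 and -0.01 ± 0.10 did not pass the test. Timp3, the matrix-bound TIMP, was lower in gonadal cells of females (-0.75 for F_FIP against F_DPP4_pos and -1.41 for F_APC against F_DPP4_neg), and its male differences of -0.16 and -0.17 ± 0.09 did not pass.

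**Figure D3:**
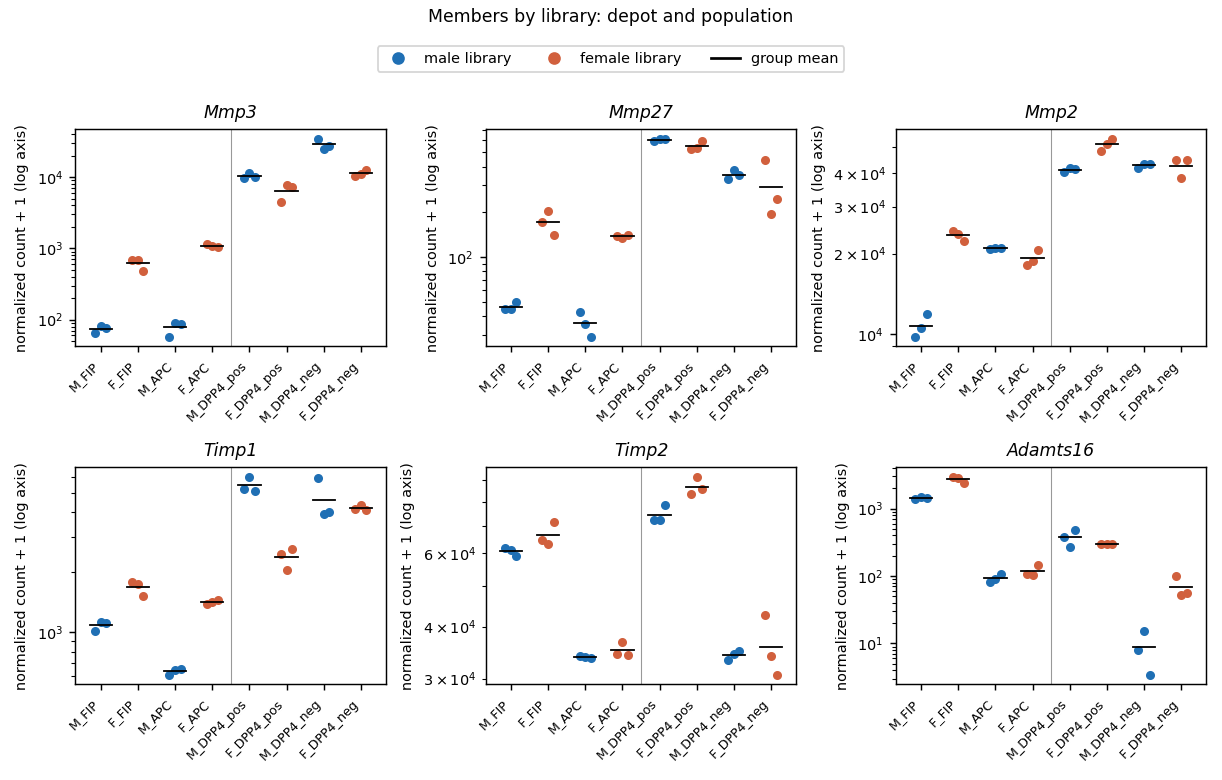
Points are single libraries (normalized count + 1, log axis) of 6 members in the 8 groups, blue for males and orange for females, with a bar at the group mean and a line between gonadal (left) and inguinal (right) groups. Mmp3 stays at 56.9 to 88.1 in the 6 gonadal male libraries and at 9833 to 34279.6 in the 6 inguinal male libraries, Timp2 follows the population, and Adamts16 is highest in FIP cells.

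Among ADAMTS genes more were higher than lower in FIP against DPP4_pos cells: 11 of 17 were higher in M_FIP and 2 lower, where 32.6% and 32.4% of all tested genes were called, and 9 were higher in F_FIP and 3 lower, where 22.1% and 22.6% were. These counts include Adamts18, which passed the filter through the inguinal female libraries alone. Without it, 10 of 16 were higher and 2 lower in M_FIP, and 9 higher and 2 lower in F_FIP. Adamts3, which encodes a procollagen N-propeptidase that also acts in the maturation of VEGF-C, held 229.6, 198 and 230.0 in M_FIP, against 36.2, 40.4 and 40.7 in M_DPP4_pos (log2 fold change 2.46 ± 0.14 SE, limma adjusted p = 4.38e-14). It held 317, 311 and 237 in F_FIP, against 78.0, 66.3 and 93.4 in F_DPP4_pos (log2 fold change 1.85 ± 0.14 SE, limma adjusted p = 3.12e-11). These groups did not overlap in either sex, and Adamts3 was also higher in APC than in DPP4_neg, by 1.05 in males and 1.06 in females. Adamts6, a gene tied to fibrillin microfibrils in the mouse, held 131, 153 and 127 in M_FIP, against 22.6, 20.8 and 24.2 in M_DPP4_pos (log2 fold change 2.55 ± 0.27 SE, limma adjusted p = 9.6e-09). Its female values were 168, 171 and 155 in F_FIP, against 46.0, 41.0 and 75.2 in F_DPP4_pos (log2 fold change 1.64 ± 0.27 SE, limma adjusted p = 2.16e-05), again without overlap. Adamts16 was higher in FIP than in DPP4_pos too, by 1.98 ± 0.31 in males and 3.17 ± 0.31 in females, as were Adamts4 (1.38 and 1.57) and Adamts7 (1.55 and 1.11).

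Of the ADAMTS-like genes, Adamtsl3 was higher in gonadal cells throughout, with 1009.6 to 1955 in the 12 gonadal libraries and 269 to 573 in the 12 inguinal ones and log2 fold changes from 1.23 to 2.07 (SE 0.12). The depots did not overlap. Adamtsl2, whose product binds fibrillin-1, held 86.9, 122 and 89.4 in M_FIP, against 13.6, 21.9 and 15.4 in M_DPP4_pos (log2 fold change 2.49 ± 0.25 SE, limma adjusted p = 3.2e-09). In females it held 128, 126 and 145 in F_FIP, against 9.0, 13.7 and 22.3 in F_DPP4_pos (log2 fold change 3.15 ± 0.25 SE, limma adjusted p = 1.29e-10), and neither pair overlapped. Between APC and DPP4_neg it was higher in F_APC (3.37 ± 0.25) and did not pass in males (-0.09). Adamtsl1 ran with the inguinal genes, being lower in gonadal cells with log2 fold changes of -2.10, -0.99, -1.39 and -0.28 in M_FIP, F_FIP, M_APC and F_APC. Mmp17, the gene of a membrane-anchored MMP, held 55.7, 42.8 and 51.2 in M_FIP, against 12.4, 12.7 and 12.1 in M_DPP4_pos (log2 fold change 1.92 ± 0.17 SE, limma adjusted p = 4.77e-10). Its female values were 94.7, 96.4 and 89.6 in F_FIP, against 35.0, 25.4 and 32.2 in F_DPP4_pos (log2 fold change 1.58 ± 0.17 SE, limma adjusted p = 3.91e-08), with no overlap in either sex.

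Adamts17, of the branch of the family shared with Adamts19, was low except in DPP4_neg cells. It held 1.07, 1.16 and 5.66 in M_APC, against 58.9, 57.2 and 74.0 in M_DPP4_neg (log2 fold change -4.37 ± 0.46 SE, limma adjusted p = 6.62e-09). Females held 11.9, 7.13 and 2.77 in F_APC, against 135, 196 and 229 in F_DPP4_neg (log2 fold change -4.64 ± 0.46 SE, limma adjusted p = 3.46e-09). No library of an APC group reached one of a DPP4_neg group. The low gonadal values rest on few reads, and the log2(value + 1) scale understates such differences.

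Over the tested members, 21 of 39 were called higher in M_FIP than in M_DPP4_pos and 11 lower, where 32.6% of all 14517 tested genes were called higher and 32.4% lower. F_FIP against F_DPP4_pos gave 15 higher and 12 lower, against 22.1% and 22.6% of all genes. M_APC against M_DPP4_neg gave 15 higher and 15 lower, against 33.1% and 33%. F_APC against F_DPP4_neg gave 15 higher and 22 lower, against 26.8% and 32.2%. In males and females alike, 14 members were higher in FIP than in DPP4_pos and 7 lower. Likewise, 11 were higher in APC than in DPP4_neg and 13 lower. The share of all tested genes called alike in both sexes was not counted, so these shared numbers have no background. Of the 13 tested MMPs, 4 were higher and 8 lower in M_APC, and 3 higher and 9 lower in F_APC, with median log2 fold changes of -0.71 and -1.02 against 0.02 and -0.02 over all genes. These counts are descriptions and include Mmp8 and Adamts18, which reached 10 in 3 libraries (M_DPP4_neg) and 6 libraries (inguinal females) and so had to differ there. Without both, the 37 other tested members gave 20 higher and 11 lower in M_FIP, 15 higher and 11 lower in F_FIP, 15 higher and 14 lower in M_APC and 15 higher and 20 lower in F_APC, and the 12 other MMPs 4 higher and 7 lower in M_APC and 3 higher and 8 lower in F_APC. The medians of these 12 MMPs were -0.70 in M_APC and -0.92 in F_APC. Adamts1, Adamts7, Adamts12, Adamts19 and Mmp15 were called in opposite directions in the sexes between APC and DPP4_neg. Marker genes of other cell types moved with depot too. Endothelial markers were higher for 9 of 10 in M_FIP, 7 of 10 in F_FIP, 10 of 10 in M_APC and 10 of 10 in F_APC, and mesothelial markers for 10 of 10, 7 of 10, 9 of 10 and 6 of 10. Mural markers were higher for 7 of 9 and lower for 2 of 9 in M_FIP, and 5 of 9 and 3 of 9 in F_FIP. In M_APC and F_APC 5 of 9 were higher and 2 lower. Mesothelial markers were lower for 3 of 10 in F_FIP and F_APC, and 1 of 10 endothelial markers in F_FIP. In the order M_FIP, F_FIP, M_APC and F_APC, 3, 5, 7 and 7 of 8 adipocyte markers were higher and 0, 0, 1 and 0 lower. For 8 neutrophil markers 1, 1, 0 and 0 were higher and 0, 1, 7 and 7 lower. For 9 epithelial markers these were 1, 0, 1 and 0, and 1, 6, 2 and 9. For 12 macrophage markers they were 7, 1, 5 and 1, and 1, 10, 2 and 9. The part of these cell types was not tested.

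Immediate early genes moved with depot as well: of 18, 15 were higher and 2 lower in M_FIP, 12 and 3 in F_FIP, 14 and 3 in M_APC and 15 and 3 in F_APC than in the inguinal group they were set against. Fosl1, which encodes an AP-1 subunit, was lower in gonadal cells with log2 fold changes of -2.36 in M_FIP, -1.62 in F_FIP, -2.26 in M_APC and -1.49 in F_APC. Fos was higher by 2.24, 1.13, 1.21 and 1.80 in those groups. Adamts1, a gene often induced with such genes, did not share one direction: -0.85 in M_FIP, -0.11 in F_FIP (not called), -0.98 in M_APC and 0.61 in F_APC, each ± 0.09. The part of these genes in the members' differences was not tested.

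The populations within each depot were compared next. Adamts16, Adamtsl4, Adamtsl5, Timp2 and Timp3 were higher in FIP than in APC and in DPP4_pos than in DPP4_neg in both sexes. Adamts4, Mmp17 and Mmp19 were lower in all 4 comparisons. For Adamts4 the gonadal male groups overlapped, with 10011, 10488 and 10001 in M_FIP and 14822, 10183 and 14924 in M_APC. Adamts16 (chromosome 13, 70727798 to 70841845), a secreted protease that cleaves fibronectin, held 1377, 1505 and 1418 in M_FIP, against 79.4, 90.4 and 105 in M_APC (log2 fold change 3.96 ± 0.31 SE, limma adjusted p = 1.41e-10). It held 2931, 2815 and 2358 in F_FIP, against 108, 103 and 147 in F_APC (log2 fold change 4.5 ± 0.31 SE, limma adjusted p = 1.84e-11). Inguinal cells showed the same direction, with 372, 269 and 476 in M_DPP4_pos, against 7.10, 14.3 and 2.47 in M_DPP4_neg (log2 fold change 5.59 ± 0.31 SE, limma adjusted p = 8.97e-14). Female inguinal cells held 301, 296 and 299.9 in F_DPP4_pos, against 97.7, 51.9 and 55.3 in F_DPP4_neg (log2 fold change 2.17 ± 0.31 SE, limma adjusted p = 2.43e-06). For Adamts16 no pair of groups overlapped, and M_DPP4_neg was the lowest group.

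Adamtsl4 (chromosome 3, 95676201 to 95687927), whose product binds fibrillin-1 in microfibrils, held 2489, 2739.9 and 2809 in M_FIP, against 835, 828 and 864 in M_APC (log2 fold change 1.67 ± 0.11 SE, limma adjusted p = 7.73e-12). It held 4247, 4096 and 4737 in F_FIP, against 966, 954 and 1015 in F_APC (log2 fold change 2.15 ± 0.11 SE, limma adjusted p = 2.15e-13). In inguinal cells it held 4229, 4380.1 and 4659.7 in M_DPP4_pos, against 1309, 1397 and 1279.9 in M_DPP4_neg (log2 fold change 1.73 ± 0.11 SE, limma adjusted p = 1.74e-12), with a log2 fold change of 1.80 in females. Each FIP or DPP4_pos library exceeded every APC or DPP4_neg library of its depot and sex. Fibrillin microfibril genes, the partners of this protein, were higher in FIP for 11 of 16 genes in males and 9 in females and lower for 1 and 2, with Fbn1 at 2.63 and 2.03. Of all tested genes, 18.9% were higher and 18% lower in M_FIP and 21.3% and 18.1% in F_FIP. In DPP4_pos against DPP4_neg cells 5 of 16 were higher and 5 lower in males, and 8 higher and 2 lower in females, with Fbn1 at 1.73 and 1.21, where 25.2% and 25.3% of all genes were called in males and 22.6% and 27.1% in females.

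Timp2 held 61848, 61130.5 and 59233 in M_FIP, against 34001, 33822 and 33584 in M_APC (log2 fold change 0.85 ± 0.10 SE, limma adjusted p = 3.06e-07). In DPP4_pos males it held 72223, 72172 and 78293, against 33287, 34401 and 34887 in M_DPP4_neg (log2 fold change 1.12 ± 0.10 SE, limma adjusted p = 1.28e-09). The female log2 fold changes were 0.92 for F_FIP against F_APC and 1.29 for F_DPP4_pos against F_DPP4_neg, and no pair overlapped. Timp3 was higher by 0.33 in M_FIP, 1.65 in F_FIP, 0.31 in M_DPP4_pos and 0.99 in F_DPP4_pos than in the APC or DPP4_neg group of the same sex (SE 0.09). Timp1 was higher in M_FIP than in M_APC (0.76) and lower in F_DPP4_pos than in F_DPP4_neg (-0.83), and its values of 0.25 in F_FIP and 0.26 in M_DPP4_pos (SE 0.11) did not pass. Timp4 was lower in F_FIP (-1.33), M_DPP4_pos (-0.81) and F_DPP4_pos (-0.78), and its difference in M_FIP was -0.01 ± 0.28.

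Mmp17 was lower in FIP and in DPP4_pos cells: 55.7, 42.8 and 51.2 in M_FIP, against 136, 104 and 128 in M_APC (log2 fold change -1.28 ± 0.17 SE, limma adjusted p = 1.42e-06). The inguinal male values were 12.4, 12.7 and 12.1 in M_DPP4_pos, against 39.6, 56.2 and 45.6 in M_DPP4_neg (log2 fold change -1.83 ± 0.17 SE, limma adjusted p = 1.81e-09). Females had log2 fold changes of -1.21 and -1.90, and the groups did not overlap in any of the 4 pairs. Mmp19 was lower with log2 fold changes of -0.56 in M_FIP, -0.49 in F_FIP, -1.76 in M_DPP4_pos and -1.10 in F_DPP4_pos. Mmp2 was the member called in opposite directions by sex between FIP and APC, with 9781 to 11849.5 in M_FIP against 20857 to 21024 in M_APC (log2 fold change -0.97 ± 0.09 SE, limma adjusted p = 1.17e-09) and 22316 to 24321 in F_FIP against 18148 to 20604 in F_APC (log2 fold change 0.29 ± 0.09 SE, limma adjusted p = 0.00869). The male difference minus the female one was -1.26 ± 0.12 SE (limma adjusted p = 1.24e-07). Mmp14 was lower in M_FIP with a log2 fold change of -0.25 ± 0.07, and its differences of 0.06 in F_FIP, -0.10 in M_DPP4_pos and -0.04 in F_DPP4_pos did not pass the test.

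Inguinal cells showed further population differences among the proteoglycan-cleaving ADAMTS genes. Adamts5, an aggrecanase gene, held 15788, 15345 and 14879.9 in M_DPP4_pos, against 5524, 5802 and 5276 in M_DPP4_neg (log2 fold change 1.47 ± 0.09 SE, limma adjusted p = 6.39e-13). Adamts4, the other main aggrecanase gene, ran the opposite way with 4289.9, 4124 and 3388 in M_DPP4_pos, against 9433, 14301 and 13379.8 in M_DPP4_neg (log2 fold change -1.64 ± 0.13 SE, limma adjusted p = 1.27e-10). The female log2 fold changes were 1.35 for Adamts5 and -1.36 for Adamts4, and no pair overlapped. Adamts7 and Adamts12, both of which cleave the cartilage protein COMP, were lower in DPP4_pos cells. Adamts12 held 1330.5, 1160.5 and 992 in M_DPP4_pos, against 2099.7, 4079.7 and 4255 in M_DPP4_neg (log2 fold change -1.52 ± 0.16 SE, limma adjusted p = 1.4e-08), and 3069.9, 3119 and 3372 in F_DPP4_pos, against 9961, 11480.0 and 11751 in F_DPP4_neg (log2 fold change -1.79 ± 0.16 SE, limma adjusted p = 1.19e-09). Adamts7 held 41.8, 50.8 and 27.5 in M_DPP4_pos, against 114, 146 and 136 in M_DPP4_neg (log2 fold change -1.73 ± 0.18 SE, limma adjusted p = 1.61e-08), and 54.0, 45.8 and 43.8 in F_DPP4_pos, against 194, 231 and 304 in F_DPP4_neg (log2 fold change -2.30 ± 0.18 SE, limma adjusted p = 1.64e-10). These groups did not overlap either. Comp itself was lower in DPP4_pos cells with log2 fold changes of -2.10 in males and -1.58 in females.

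Adamts17 was lower in DPP4_pos cells, with 7.91, 5.77 and 15.4 in M_DPP4_pos against the DPP4_neg values above (log2 fold change -2.68 ± 0.46 SE, limma adjusted p = 2.22e-05) and 10, 8.78 and 4.96 in F_DPP4_pos (log2 fold change -4.41 ± 0.46 SE, limma adjusted p = 1.27e-08). Adamtsl2 was lower with log2 fold changes of -2.07 and -1.18 and Mmp15 with log2 fold changes of -1.06 and -4.17 in males and females, of which the male Mmp15 value was not called after quantile normalization (-0.65, limma adjusted p = 0.0519). Mmp28, the epilysin gene, had 3 reads over the 3 M_DPP4_pos libraries and 159 over the M_DPP4_neg libraries, a ratio of 50.8 in favour of M_DPP4_neg (exact binomial 95% interval 17.1 to 248.9, counting error only). In females its ratio was 19.8 in favour of F_DPP4_neg (6.49 to 98.3). Mmp8, the neutrophil collagenase gene, had 0 reads in M_DPP4_pos and 75 in M_DPP4_neg, at least 24-fold higher in M_DPP4_neg by a floor of 3 reads over the group. Mmp9, the gelatinase B gene, held 12.4, 3.46 and 2.20 in M_DPP4_pos, against 83.2, 34.7 and 75.2 in M_DPP4_neg (log2 fold change -3.41 ± 0.47 SE, limma adjusted p = 9.93e-07). The neutrophil marker S100a9 held 1.13, 0 and 0 in M_DPP4_pos, against 953, 261 and 800.2 in M_DPP4_neg, and the library lowest in S100a9 within M_DPP4_neg was also the lowest in Mmp8 and Mmp9. The part of neutrophil transcripts in the Mmp8 and Mmp9 values was not tested. Mmp8 entered the test through its 3 M_DPP4_neg libraries, so it had to differ there and these reads are a description.

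Over the tested members, 11 of 39 were higher in M_FIP than in M_APC and 9 lower, where 18.9% of all tested genes were called higher and 18% lower. F_FIP against F_APC gave 12 higher and 11 lower, against 21.3% and 18.1%. M_DPP4_pos against M_DPP4_neg gave 11 higher and 20 lower, against 25.2% and 25.3%. F_DPP4_pos against F_DPP4_neg gave 15 higher and 19 lower, against 22.6% and 27.1%. By family, 0 of 13 MMPs were higher and 5 lower in M_FIP, 1 and 6 in F_FIP, 2 and 9 in M_DPP4_pos and 3 and 7 in F_DPP4_pos. The median log2 fold change of the MMPs was -0.36, -0.49, -1.06 and -1.10 in those comparisons, against -0.03, -0.0026, 9.5e-05 and -0.04 over all genes. Males and females shared 8 members higher in FIP and 4 lower, and 10 higher in DPP4_pos and 16 lower. How many of all tested genes the sexes shared was not counted, so these numbers have no background. Adamts8 and Adamtsl3 were called in opposite directions by sex in the inguinal comparison. Without Mmp8 and Adamts18 the 37 other members gave 11 higher and 19 lower in M_DPP4_pos and 15 higher and 18 lower in F_DPP4_pos, and the 12 other MMPs 2 higher and 8 lower and 3 higher and 7 lower. Neither gene was called between FIP and APC, so the numbers called there stayed as given. The medians of the 12 other MMPs were -0.31 in M_FIP, -0.53 in F_FIP, -0.94 in M_DPP4_pos and -0.97 in F_DPP4_pos.

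These population comparisons also held differences in marker lists and in immediate early genes, whose part was not tested. In M_FIP against M_APC, 7 of 8 adipocyte and 6 of 9 mural markers were lower. In F_FIP against F_APC, 8 of 8 adipocyte, 9 of 9 mural, 11 of 12 macrophage, 8 of 10 endothelial and 8 of 10 mesothelial markers were lower. In M_DPP4_pos against M_DPP4_neg, 8 of 8 neutrophil, 6 of 9 mural, 5 of 12 macrophage and 3 of 8 adipocyte markers were lower. In F_DPP4_pos against F_DPP4_neg, 9 of 9 epithelial, 8 of 8 neutrophil, 12 of 12 macrophage, 8 of 10 endothelial, 5 of 9 mural, 6 of 10 mesothelial and 7 of 8 adipocyte markers were lower. In both female comparisons the summed endothelial level was higher in spite of these counts, with 1 of 10 markers higher in F_FIP and 2 of 10 in F_DPP4_pos. The marker Tek carried much of that sum, with 4688 to 5245 in F_FIP against 1696 to 1875 in F_APC. It was 4570 to 5494 in F_DPP4_pos, against 968 to 1707 in F_DPP4_neg. Pecam1 ran the other way, with 153 to 184 in F_FIP against 263 to 462 in F_APC. It was 42.1 to 115 in F_DPP4_pos, against 129 to 184 in F_DPP4_neg. The sum was higher in both male comparisons as well. Of 18 immediate early genes, 5 were higher and 10 lower in M_FIP, 3 and 11 in F_FIP, 4 and 11 in M_DPP4_pos and 9 and 4 in F_DPP4_pos. Adamts4 was lower in all 4, and Adamts1 had log2 fold changes of 0.03 in M_FIP, -0.23 in F_FIP, -0.10 in M_DPP4_pos and 0.48 in F_DPP4_pos (SE 0.09), of which the last was called.

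**Figure D4:**
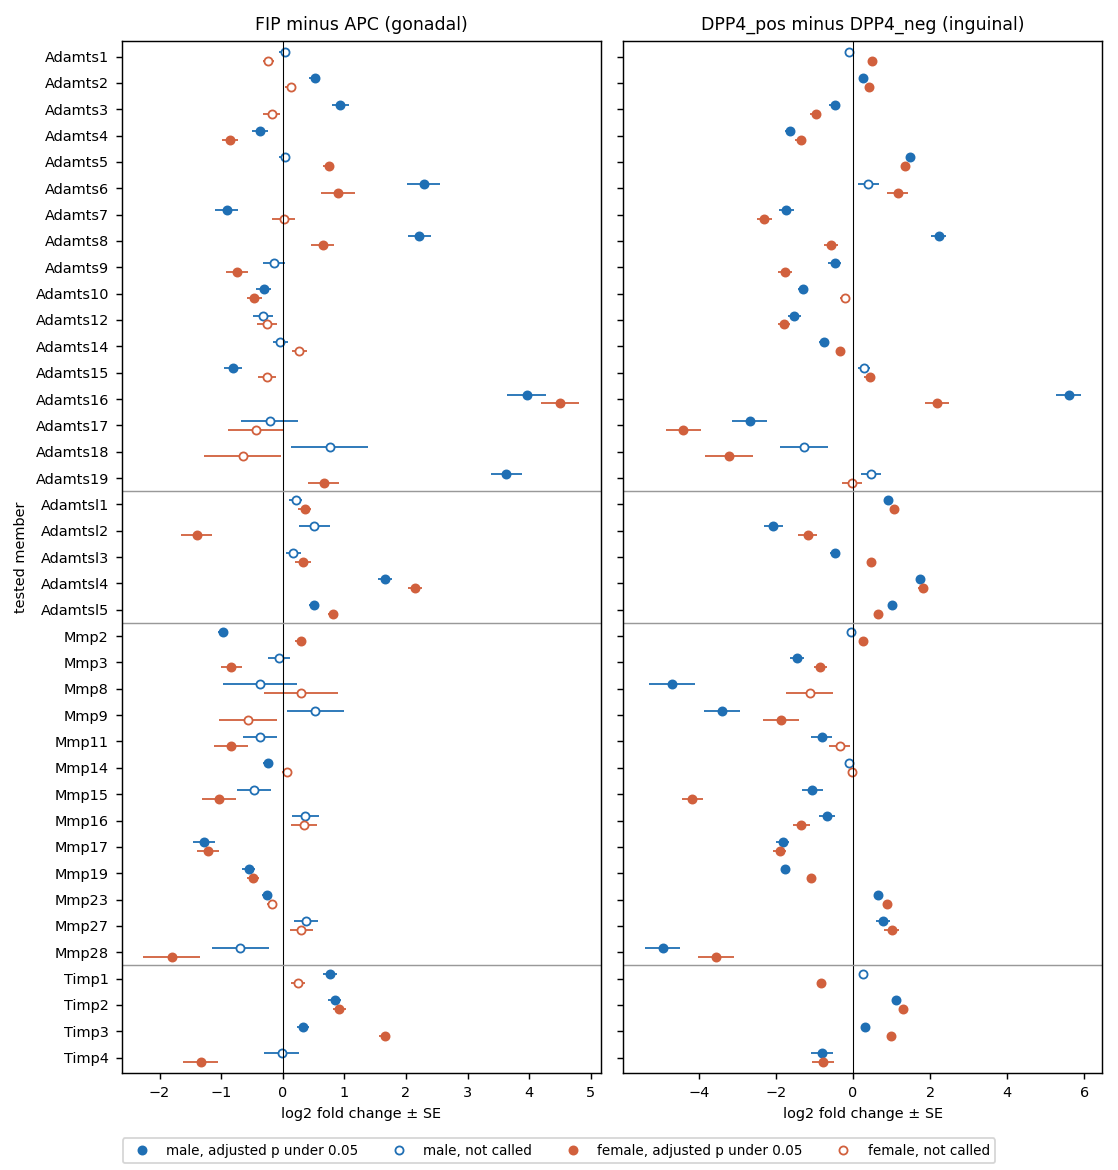
Points are log2 fold changes with SE bars for the 39 tested members, FIP minus APC on the left and DPP4_pos minus DPP4_neg on the right, for males (blue) and females (orange), filled where the limma adjusted p was under 0.05. Adamts16 and Adamtsl4 lie to the right of 0 and Mmp17 and Mmp19 to the left in both panels and both sexes.

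Male and female cells of the same population were compared last. Adamts19, a member of the branch shared with Adamts17, was lower in males in 3 populations and did not pass in FIP. It held 9.04, 15 and 8.81 in M_DPP4_pos, against 609, 318 and 618 in F_DPP4_pos (log2 fold change -5.41 ± 0.25 SE, limma adjusted p = 9.14e-15). It held 5.07, 7.15 and 11.1 in M_DPP4_neg, against 619.7, 406 and 506 in F_DPP4_neg (log2 fold change -5.90 ± 0.25 SE, limma adjusted p = 1.02e-15). M_APC held 22.5, 26.7 and 17, against 222, 260.4 and 217 in F_APC (log2 fold change -3.36 ± 0.25 SE, limma adjusted p = 7.42e-11). Male and female libraries did not overlap in these 3 populations. In FIP the sexes overlapped, with 264, 287 and 288 in M_FIP and 417, 419 and 286 in F_FIP (log2 fold change -0.40 ± 0.25 SE, limma adjusted p = 0.232). Among males, Adamts19 was accordingly higher in FIP than in APC by 3.63 ± 0.25 and in FIP than in DPP4_pos by 4.59.

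Adamts18, a gene close in sequence to Adamts16, held 0, 4.08 and 4.93 in M_DPP4_neg, against 135, 198 and 212 in F_DPP4_neg, and 1 read in M_DPP4_pos, against 59 in F_DPP4_pos, a ratio of 48.5 in favour of F_DPP4_pos (exact binomial 95% interval 8.37 to 1948). In the other groups it ranged over 0 to 8.03 and it passed the filter through the inguinal female libraries alone, so it had to differ there and its values are a description with no test. Mmp15, which encodes a membrane-anchored MMP, held 15.2, 18.4 and 12.3 in M_DPP4_neg, against 164, 319.6 and 221 in F_DPP4_neg (log2 fold change -3.82 ± 0.27 SE, limma adjusted p = 1.6e-11). Every F_DPP4_neg library exceeded every library of the other 7 groups for both genes. In the same 3 F_DPP4_neg libraries the epithelial genes Epcam and Krt8 held 803, 1913 and 1149 and 2851, 6780.1 and 4071, in the same order as Mmp15. In F_DPP4_pos Epcam was 30.0 to 61.5 and Krt8 105 to 199, against 1.10 to 3.39 and 0 to 2.26 in M_DPP4_pos. The part of epithelial transcripts in the Adamts18 and Mmp15 values was not tested. Adamts9, a versican protease gene, was lower in M_DPP4_neg with a log2 fold change of -1.72 (limma adjusted p = 9.21e-09). Its means were 256 ± 55.0 in M_DPP4_neg and 846 ± 181 in F_DPP4_neg (SD, n = 3). The F_DPP4_neg libraries held 654, 1012 and 872, in the same order as Epcam, against 121 to 314 in the other groups. The part of epithelial transcripts in the Adamts9 values was not tested.

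Mmp3 was called in opposite directions by sex in gonadal and inguinal cells, and the difference between these sex differences was not itself tested. It was lower in males in gonadal cells (log2 fold change -3.05 ± 0.18 SE, limma adjusted p = 6.75e-13 in FIP and -3.82 in APC, limma adjusted p = 6.2e-15), and higher in males in inguinal cells (0.72 in DPP4_pos, limma adjusted p = 0.00117, and 1.34 in DPP4_neg, limma adjusted p = 4.95e-07). The sexes did not overlap in any of the 4 populations, as the per-library values above show. Mmp27 was lower in males in FIP (-1.87) and APC (-1.94), and its inguinal differences of 0.13 and 0.36 ± 0.19 did not pass. Timp1 was lower in M_FIP (-0.63) and M_APC (-1.15), higher in M_DPP4_pos (1.20) and not called in DPP4_neg (0.11 ± 0.11). Mmp2 was lower in M_FIP with a log2 fold change of -1.13, with 9781, 10548 and 11849.5 in M_FIP and 24321, 23710.3 and 22316 in F_FIP, and differed by 0.13 in APC (not called), -0.32 in DPP4_pos (called lower) and 0.01 in DPP4_neg (not called).

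Some members kept a sex difference across populations. Mmp16, Mmp17, Mmp19, Adamts3 and Adamts14 were lower in males in all 4 comparisons, with log2 fold changes of -0.90, -0.92, -1.48 and -2.14 for Mmp16 in FIP, APC, DPP4_pos and DPP4_neg. Mmp19 gave -0.80, -0.74, -1.96 and -1.30, with means of 1092 ± 163 in M_DPP4_pos and 4262 ± 698 in F_DPP4_pos (SD, n = 3). Adamts5 was higher in males in all 4, by 0.47, 1.19, 0.47 and 0.35 (SE 0.09). In APC it held 14230.5, 15344 and 14799.7 in males, against 5923, 6660.4 and 6945 in females, without overlap. Timp3 was higher in M_APC (8557, 8654 and 8371) than in F_APC (3639, 3711 and 4406; log2 fold change 1.13 ± 0.09 SE, limma adjusted p = 4.14e-10) and lower in M_DPP4_pos than in F_DPP4_pos (-0.79). Timp2 differences between the sexes, from -0.23 to -0.05 ± 0.10, did not pass in any population. Mmp14 was lower in M_FIP (-0.23), while the other 3 populations gave 0.08, -0.0047 and 0.06 ± 0.07 and were not called.

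Adamts8, an aggrecanase-like gene, changed direction with population: higher in males in FIP (0.73) and DPP4_pos (1.38) and lower in APC (-0.83) and DPP4_neg (-1.41), each ± 0.19. Its libraries held 293, 324 and 331 in M_DPP4_pos, against 76.0, 146 and 158 in F_DPP4_pos, and 50.7, 78.6 and 75.2 in M_DPP4_neg, against 160.5, 193 and 188 in F_DPP4_neg. Neither pair overlapped. Adamtsl2 was lower in M_APC, with 68.7, 75.3 and 62.2 in M_APC, against 385, 334 and 339 in F_APC (log2 fold change -2.34 ± 0.25 SE, limma adjusted p = 2.98e-08). Adamtsl1 was lower in males in both gonadal populations (-1.35 in FIP and -1.20 in APC), and its inguinal differences of -0.24 and -0.09 ± 0.11 were not called. Adamts16 was lower in M_DPP4_neg with a log2 fold change of -3.14 (limma adjusted p = 5.65e-09), with the values given above. Markers of the DPP4_pos population differed the same way there: Dpp4 was 243, 235 and 258 in M_DPP4_neg, against 4213, 2124 and 1150.2 in F_DPP4_neg, and Pi16 815, 664 and 700.4 in M_DPP4_neg, against 11178, 6285 and 3359.8 in F_DPP4_neg. Gonadal APC cells showed the same direction, with Dpp4 at 160 to 218 in M_APC and 1060 to 1461 in F_APC. Pi16 was 326 to 423 in M_APC and 2551 to 3267 in F_APC. The part of these markers in the Adamts16 difference, and in its sex difference of the inguinal contrast, was not tested. Nor was their part in the sex differences of APC cells or of the FIP to APC contrast. Adamts12, Adamts15 and Adamts6 were lower in M_DPP4_pos with log2 fold changes of -1.46, -1.17 and -1.18, and Adamts6 also in M_APC with a log2 fold change of -1.65.

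**Figure D5:**
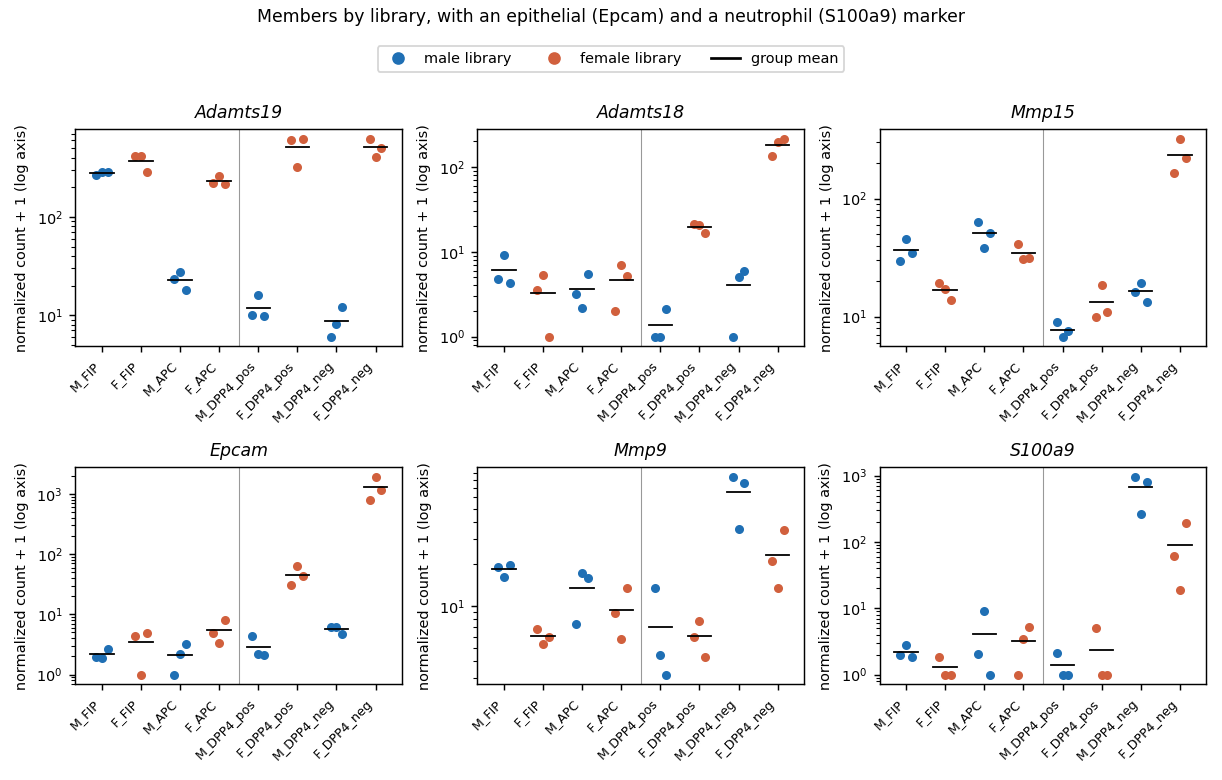
Points are single libraries (normalized count + 1, log axis) of 4 members, the epithelial marker Epcam and the neutrophil marker S100a9 in the 8 groups, blue for males and orange for females, with a bar at the group mean. Adamts19 is low in male libraries except in M_FIP, Adamts18, Mmp15 and Epcam are highest in F_DPP4_neg, and Mmp9 and S100a9 are highest in M_DPP4_neg.

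In all, 6 of 39 tested members were higher in M_FIP than in F_FIP and 17 lower, where 18.2% of all tested genes were called higher and 19% lower. M_APC against F_APC gave 5 higher and 18 lower, against 22.4% and 22.1%. M_DPP4_pos against F_DPP4_pos gave 5 higher and 17 lower, against 27.1% and 25.5%. M_DPP4_neg against F_DPP4_neg gave 10 higher and 16 lower, against 27.1% and 30.3%. Among the 17 tested ADAMTS genes 6, 9, 9 and 12 were lower in males in FIP, APC, DPP4_pos and DPP4_neg and 3, 3, 2 and 3 higher, with median log2 fold changes of -0.26, -0.37, -0.44 and -1.03. The median of all genes lay between -0.03 and 0. Quantile normalization in place of the deposited scaling raised the number higher in M_APC to 8. Without Mmp8 and Adamts18, which had to differ between the sexes in inguinal cells, the counts were 5 higher and 16 lower in M_DPP4_pos and 9 higher and 15 lower in M_DPP4_neg. The 16 other ADAMTS genes gave 2 higher and 8 lower in M_DPP4_pos, with a median of -0.36. In M_DPP4_neg they gave 3 higher and 11 lower, with a median of -0.94.

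Other cell type markers and immediate early genes differed by sex as well, and their part in the members' differences was not tested. M_FIP was higher than F_FIP in 8 of 8 adipocyte, 11 of 12 macrophage, 8 of 10 endothelial and 6 of 9 mural markers. M_APC was lower than F_APC in 6 of 10 mesothelial and 4 of 9 epithelial markers, with 1 epithelial marker higher. M_DPP4_pos was higher than F_DPP4_pos in 8 of 8 adipocyte markers. M_DPP4_pos was lower in 5 of 9 epithelial, 5 of 12 macrophage and 4 of 10 mesothelial markers, and higher in 1, 2 and 1. M_DPP4_neg was lower than F_DPP4_neg in 9 of 9 epithelial, 8 of 10 endothelial and 6 of 12 macrophage markers and higher in 5 of 8 adipocyte and 5 of 8 neutrophil markers. Of 18 immediate early genes, 6 were higher and 4 lower in M_FIP, 3 and 7 in M_APC, 6 and 10 in M_DPP4_pos and 10 and 4 in M_DPP4_neg than in the female group. Adamts1 had sex differences of -0.59, -0.85, 0.15 and 0.74 in FIP, APC, DPP4_pos and DPP4_neg, and Adamts4 of -0.48, -0.97, -0.29 and -0.01, with Adamts1 not called in DPP4_pos and Adamts4 not called in either inguinal population.

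Whether the population contrasts themselves differed by sex or depot was tested with interaction terms. The FIP to APC contrast differed between the sexes for 13 of 39 tested members (10.8% of all tested genes) and the DPP4_pos to DPP4_neg contrast for 14 (29%). Without the second library of M_FIP, or without the second library of F_APC, the count for FIP and APC was 8. Within males the FIP to APC contrast differed from the DPP4_pos to DPP4_neg contrast for 25 members (27.5%), and within females for 23 (34.3%). Leaving out Mmp8 and Adamts18, the counts are 13, 13, 24 and 22 of 37. Adamts19 had the largest sex difference of the FIP to APC contrast, 2.97 (limma adjusted p = 3.5e-06), from 3.63 in males and 0.66 in females. Adamts16 had the largest positive sex difference of the inguinal contrast, 3.42 (limma adjusted p = 1.95e-06), from 5.59 in males and 2.17 in females. For Adamts16 the FIP to APC contrast minus the DPP4_pos to DPP4_neg contrast was -1.63 in males and 2.33 in females. M_DPP4_neg, which enters the male inguinal contrast, had 7, 14 and 2 reads of Adamts16. Timp3 differed by sex in both contrasts (-1.33 and -0.67), as did Timp1 (0.52 and 1.09), and Timp2 in neither (-0.07 and -0.18 ± 0.15).

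The remaining tested members showed smaller or mixed differences. Adamts2, a procollagen N-propeptidase gene like Adamts3 and Adamts14, was higher in M_FIP than in M_APC (0.52 ± 0.09), in M_DPP4_pos (0.25) and in F_DPP4_pos (0.41) than in DPP4_neg of the same sex, and lower in males in APC (-0.29), DPP4_pos (-0.61) and DPP4_neg (-0.45). Adamts10, which like Adamts6 is tied to fibrillin microfibrils, was higher in gonadal cells in all 4 depot comparisons, with log2 fold changes from 0.37 in M_APC to 1.36 in M_FIP. Adamts14 had a median of 767 in M_FIP and 394 in M_DPP4_pos (0.88 ± 0.12). Adamts15, a versican and aggrecan protease gene, was higher in M_APC than in M_DPP4_neg (1.92 ± 0.14) and lower in M_FIP than in M_APC (-0.81). Adamtsl5 differed by 1.0 between M_DPP4_pos and M_DPP4_neg, with 927 to 1021 in M_DPP4_pos and 433 to 537 in M_DPP4_neg. Mmp11, the stromelysin-3 gene, was higher in M_FIP than in M_DPP4_pos (1.54 ± 0.28), in M_APC (1.09) and in F_APC (0.83) than in DPP4_neg. Mmp16, a membrane-anchored MMP gene, was lower in DPP4_pos than in DPP4_neg (-0.68 in males and -1.34 in females, ± 0.22). Mmp23 was higher in APC than in DPP4_neg (0.79 in males and 1.12 in females) and in DPP4_pos than in DPP4_neg (0.65 and 0.89), each ± 0.07. Mmp16 and Adamts15 showed different sex patterns, with Mmp16 lower in males in all 4 populations and Adamts15 higher in M_APC (0.35) and lower in M_DPP4_pos and M_DPP4_neg (-1.03).

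Genes that act with these proteases were read from lists chosen with earlier results known. Of 20 tested protease activators and inhibitors outside the TIMPs, 13 were higher in M_DPP4_pos and 4 lower, 9 higher in F_DPP4_pos and 4 lower, 9 higher in M_FIP and 4 lower than in M_APC, and 7 higher in F_FIP and 8 lower than in F_APC. Over all tested genes the shares higher and lower were 25.2% and 25.3% in M_DPP4_pos, 22.6% and 27.1% in F_DPP4_pos, 18.9% and 18% in M_FIP and 21.3% and 18.1% in F_FIP, which is the background of the list counts. Pcsk6, which encodes a proprotein convertase, was higher by 2.90 in M_FIP, 1.41 in F_FIP, 4.25 in M_DPP4_pos and 2.39 in F_DPP4_pos. Papln, the gene of the ADAMTS-related protein papilin, was higher by 4.16 in M_FIP, 0.63 in F_FIP, 3.90 in M_DPP4_pos and 0.60 in F_DPP4_pos. Between depots the same list gave 13 lower and 4 higher in M_FIP, 14 and 3 in F_FIP, 11 and 8 in M_APC and 9 and 7 in F_APC, where 32.4% and 32.6%, 22.6% and 22.1%, 33% and 33.1%, and 32.2% and 26.8% of all genes were. Thbs2, the gene of a matricellular protein that takes part in the clearance of MMP2, was lower in gonadal cells with log2 fold changes of -2.92, -3.58, -4.58 and -4.21 in those groups, and Plaur, the urokinase receptor gene, with log2 fold changes of -1.70, -1.81, -2.47 and -2.27.

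Among substrates, 15 of 17 collagen genes were lower and 1 higher in M_DPP4_pos than in M_DPP4_neg, and 10 lower and 3 higher in F_DPP4_pos than in F_DPP4_neg, against 25.3%, 25.2%, 27.1% and 22.6% of all genes. In FIP against APC 9 were lower and 1 higher in males and 8 lower and 3 higher in females, with Col14a1 higher by 3.70 and 2.45 and Col15a1 lower with log2 fold changes of -1.52 and -1.78. Vcan, the gene of versican, was higher in FIP by 1.11 in males and 1.04 in females, and the hyaluronan synthase gene Has2 by 1.88 and 1.71. Of the 14 tested proteoglycan and hyaluronan genes, 5 were higher and 3 lower in M_FIP and 4 higher and 5 lower in F_FIP, against 18.9%, 18%, 21.3% and 18.1% of all genes. Cd44, the hyaluronan receptor gene, was lower in gonadal cells with log2 fold changes of -2.55 in M_FIP, -1.94 in F_FIP, -3.14 in M_APC and -2.62 in F_APC. Of 17 related ADAM and astacin metalloprotease genes, 11 were higher and 6 lower in M_DPP4_pos and 8 higher and 4 lower in F_DPP4_pos, against 25.2%, 25.3%, 22.6% and 27.1% of all genes. In FIP against APC 7 were higher and 5 lower in males, and 6 and 4 in females. Of all genes, 18.9%, 18%, 21.3% and 18.1% were. Between depots the list gave 4 higher and 9 lower in M_FIP and 3 and 7 in F_FIP. In M_APC it gave 4 and 8, and in F_APC 3 and 8. The shares of all genes were 32.6% and 32.4%, 22.1% and 22.6%, 33.1% and 33%, and 26.8% and 32.2%. Pappa, which cleaves IGF-binding proteins, was lower with log2 fold changes of -2.30 in M_FIP, -2.35 in F_FIP, -3.79 in M_DPP4_pos and -3.58 in F_DPP4_pos. Against the direction of most called genes of the list, it was higher in gonadal than in inguinal cells by 3.20 to 4.68.

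The 12 members that could not be tested were Adamts13, Adamts20, Mmp1a, Mmp1b, Mmp7, Mmp10, Mmp12, Mmp13, Mmp20, Mmp21, Mmp24 and Mmp25, with 2 to 114 reads over the 24 libraries. Mmp25, a membrane-type MMP gene of leukocytes, had the most reads, with normalized counts of 6.09 to 24.7 in M_DPP4_neg and 0.813 to 7.91 elsewhere. Mmp12, the macrophage elastase gene, reached 32.1 in the second M_FIP library and 8.63 in the next highest library. Adamts13, which cleaves von Willebrand factor, had 24 reads, of which most were in M_DPP4_neg (9.13, 8.17 and 2.47). These values are descriptions, and no difference between groups was tested for these genes.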

How the data were processed

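Values were taken from the table of normalized counts that the authors deposited, a signal unit in which gene counts were divided by a size factor for each library. Per the submitters' processing notes, featureCounts 1.4.6, DESeq2 1.6.3, Trim Galore 0.4.1 and HISAT2 2.0.1 were used with GRCm38/mm10. Filters, gene annotation and whether counting used strand are not given in the sources used here, so reads of overlapping or antisense genes cannot be told apart. Every value divided into whole reads for its library (100% within 0.01 read), which gave the depths of 9152470 to 18221692 reads. Genes without a symbol (958, at most 0.0765% of the reads of a library) stayed in the fits.

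Log2(value + 1) was fitted over all 24 libraries with 1 mean per group (limma 3.58.1 in R 4.3.3), for the 14517 genes that reached 10 in 3 or more libraries, with Benjamini-Hochberg adjustment over all of them and a threshold of 0.05. Fold changes are on that scale, which understates those of low genes. The fit was tested on simulated data. Sex and depot differences of a population contrast are interaction terms. Levels between genes are per kilobase of exon (union of exons, GENCODE M21). Members and gene lists were chosen with earlier results of these data known. Members named with values in every library had a mean of at least 100 in their highest group and were called with a log2 fold change of at least 1, in both sexes for population and depot comparisons, up to 8 for each kind of comparison. Differences of at least 1.5 were named for interaction terms, and Timp1 to Timp4, Mmp2 and Mmp14 were always described. Members outside this rule are named after their values were seen.

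Replicates of a group correlated at 0.982 to 0.992 on the log2 scale and none agreed within sampling noise (chi-square per degree of freedom 1.61 to 25.4). Intervals and the floor of 3 reads over a group cover counting error only. Same-numbered libraries deviated together most in F_DPP4_pos and F_DPP4_neg (r = 0.129, 0.201 and 0.105 over genes). The alternatives were a pseudocount of 5, no filter, quantile normalization, a fit of the compared groups alone, a replicate block, leaving out each library, and edgeR 4.0.16 and DESeq2 1.42.0 on the recovered reads. Between M_FIP and M_APC, 5355 genes were called by limma, 5466 by edgeR and 5221 by DESeq2. Counts without Mmp8 and Adamts18 were added after seeing the data. Promoter sequences are from RefSeq (GRCm38.p6), where windows were read for 36 of the 51 members.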

Additional observations from a re-analysis of the deposited data

Results flagged for a closer look

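Members are listed here because a test of the difference itself found that a population contrast differed between the sexes, or between the depots, by at least 1.5 on the log2 scale (limma interaction term, adjusted p under 0.05, 24 libraries). The FIP to APC contrast in males minus that in females was 1.56 for Adamts8, 2.97 for Adamts19 and 1.91 for Adamtsl2. Behind these lie contrasts of 2.21 in males and 0.65 in females for Adamts8, and of 0.51 and -1.40 for Adamtsl2.

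The DPP4_pos to DPP4_neg contrast in males minus that in females was 2.79 for Adamts8, 3.42 for Adamts16, 1.73 for Adamts17, -3.58 for Mmp8 and 3.10 for Mmp15. The contrasts were 2.22 in males and -0.57 in females for Adamts8, and -1.06 and -4.17 for Mmp15. The Adamts17 value was not called without the filter on low values or after leaving out any 1 of 9 libraries, and the Mmp8 value was not called by edgeR. Mmp8 passed the filter only through M_DPP4_neg, its highest group, so it had to differ there and its values here are descriptions.

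In males the FIP to APC contrast minus the DPP4_pos to DPP4_neg contrast was 1.90 for Adamts6, -1.63 for Adamts16, 2.47 for Adamts17, 3.16 for Adamts19 and 2.59 for Adamtsl2. The same quantity was 4.34 for Mmp8, 3.94 for Mmp9 and 4.26 for Mmp28. The Mmp8 value is a description, since Mmp8 passed the filter only through M_DPP4_neg. edgeR and DESeq2 on the recovered reads did not call the Adamts17 and Mmp8 values. Neutrophil markers were present in M_DPP4_neg beside the Mmp8 and Mmp9 values, and their part was not tested.

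In females the same quantity was 2.31 for Adamts7, 1.53 for Adamts12, 2.33 for Adamts16, 3.97 for Adamts17 and 2.57 for Adamts18. It was 3.13 for Mmp15, 1.69 for Mmp16 and 1.75 for Mmp28. Adamts18 passed the filter only through the 6 inguinal female libraries, so its value is a description, and it was not called after leaving out any 1 of 6 libraries, and the Mmp28 value was not called under 4 alternatives or without any 1 of 9 libraries. Epithelial markers were present in F_DPP4_neg beside these values, and their part was not tested.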

How the results depend on the processing

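The 28 counts of members called and 222 values of single members were recomputed under each alternative, and no direction reversed. Quantile normalization gave 8 members higher in M_APC than in F_APC, in place of 5. The count of members whose FIP to APC contrast differed between the sexes, 13, ranged from 8 to 12 when single libraries were left out, and was 8 without M_FIP replicate 2 or without F_APC replicate 2. The cause was not tested. With a replicate block that count was 11, and the block changed none of the 222 calls and left all 28 counts within 1.5 times. Same-numbered libraries were each other's best match in F_DPP4_pos and F_DPP4_neg, and in no other pair of groups were all correlations over 0.1. They were also the best match in M_APC with F_APC (r = 0.073, 0.054 and 0.045). The same held in M_DPP4_neg with F_DPP4_neg (r = 0.067, 0.097 and 0.046). These other pairs join different sexes, and whether numbers stand for shared animals is not given. Single calls were lost for 4 values each without the filter, with quantile normalization, with edgeR and with DESeq2, for 2 each with a pseudocount of 5 and with the compared groups alone, and for 43 of 1581 recomputed values when 1 library was left out. They concern Adamts6, Adamts17, Adamts18, Mmp8, Mmp9, Mmp15, Mmp16, Mmp28 and Timp4. Quantile normalization moved the median of all genes to 0.11 between F_APC and F_DPP4_neg.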
